A study of Mus musculus with 9 samples.

Results

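The protein part of the cytosolic ribosome was followed in bulk RNA-seq of whole E15.5 mouse kidneys. Genes were taken by name, as loci of the deposited table whose symbol follows the pattern of an *Rpl*, *Rps*, *Rplp* or *Rpsa* gene (including paralogs whose names end in l, l1 or al), and a mean of at least 5 FPKM over all 9 libraries was required. FPKM are fragments per kilobase of transcript scaled to the size of the library. Of 24138 loci, 85 carried such a name and 82 passed the minimum: 31 genes of the small subunit, 46 of the large subunit and its stalk, and 5 paralogs. The other 3 names, *Rpl39l*, *Rpl3l* and *Rpl10l*, were far outside the minimum, with a mean of 0.117 FPKM for *Rpl39l*, 0.0415 for *Rpl3l* and 0 in every library for *Rpl10l*. The members nearest to the minimum were *Rpl7l1* at 73.6 FPKM and *Rps4l* at 118 FPKM, so that no gene lay close to it.

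The study deleted *Ntn1*, which encodes the secreted guidance protein netrin 1, from the stromal progenitors of the kidney. Its 9 libraries were of 3 genotypes with 3 libraries each, numbered 1 to 3. MUT kidneys were Foxd1GC/+;Ntn1fl/fl, HET kidneys Foxd1GC/+;Ntn1fl/+ and WT kidneys Ntn1fl/fl with no Cre. The embryos were on a C57Bl6/J background and of both sexes. All 3 genotypes thus carried floxed *Ntn1*, and HET and MUT shared a GFP-Cre inserted into 1 *Foxd1* allele, which removes that allele. The Cre acts in *Foxd1*-expressing stromal progenitors and their descendants, whereas RNA came from the whole organ, so deleted and intact cells were not separated.

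A ribosome is built from ribosomal RNA and a fixed set of proteins, most of them present once in each particle. A mammalian cell makes these proteins in matched amounts from genes scattered over the genome. Many of the messages begin with a cytosine followed by a run of pyrimidines, the 5′ terminal oligopyrimidine (TOP) motif, through which mTORC1 and the binding protein LARP1 control how much of them is translated. Growing embryonic tissue spends a large part of its messenger RNA on these proteins.

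The start sites show what the genes share that their names do not give. RefSeq promoter sequences (GRCm38.p6) were matched by symbol for 61 of the 82 members. A cytosine followed by 6 or more further pyrimidines, on the gene's own strand, lay within the window from 20 bases before to 50 bases after the start in 48 of them (78.7%), against 33.3% of 17491 protein-coding genes. The ETS core CCGGAAG occurred on either strand of the whole 300-base promoter in 41.0% of members and 12.9% of all genes, the YY1 core AAGATGGC in 9.84% and 3.57%, and the TATA sequence TATAAA in 11.5% and 14.8%. The reverse complement of CCGGAAG holds a short pyrimidine run, so the searches can overlap. The windows below were drawn only from members that hold the run, to show its form in genes that the later results turn on, with the run in capitals. A match is only a match of letters, and other genes that stood high or low are not shown. *Rpl22l1*, *Rpl39*, *Rps27* and *Rpl26* stood high in 1 MUT library, *Rpl28*, *Rpl6* and *Rpl4* stood low in it, and *Rplp2* varied least between libraries.
Rpl22l1, chr3:28805503-28805532, plus strand: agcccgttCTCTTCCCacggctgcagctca
Rpl39, chrX:37085173-37085202, minus strand: gttcttccggtcccggCCTTTCTCTTCTCC
Rps27, chr3:90213629-90213658, minus strand: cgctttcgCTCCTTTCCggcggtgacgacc
Rpl26, chr11:68901581-68901610, plus strand: gtgtagttCTCTTTCCTTTTgcggccatcg
Rpl28, chr7:4792955-4792984, plus strand: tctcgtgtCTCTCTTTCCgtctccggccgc
Rpl6, chr5:121204521-121204550, plus strand: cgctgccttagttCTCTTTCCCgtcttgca
Rpl4, chr9:64173405-64173434, plus strand: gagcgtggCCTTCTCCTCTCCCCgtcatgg
Rplp2, chr7:141447639-141447668, plus strand: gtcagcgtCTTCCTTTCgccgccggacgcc

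Members were also compared as sequences, because a read that fits several genes can be assigned to either. *Rps27* (chromosome 3, 90212667 to 90213648, minus strand) and its paralog *Rps27l* (chromosome 9, 66946118 to 66949509, plus strand) are printed as coding sequences from GENCODE release M21, since both stood high in the same MUT library. Each has 252 coding bases, of which 192 (76.2%) are identical, and the 60 that differ are in capitals.
Rps27: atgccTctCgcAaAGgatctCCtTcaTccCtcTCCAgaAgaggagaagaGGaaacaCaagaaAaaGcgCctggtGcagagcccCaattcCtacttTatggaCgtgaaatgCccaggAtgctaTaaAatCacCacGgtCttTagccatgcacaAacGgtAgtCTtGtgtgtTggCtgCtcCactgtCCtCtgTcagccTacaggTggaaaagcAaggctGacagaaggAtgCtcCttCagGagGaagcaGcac
Rps27l: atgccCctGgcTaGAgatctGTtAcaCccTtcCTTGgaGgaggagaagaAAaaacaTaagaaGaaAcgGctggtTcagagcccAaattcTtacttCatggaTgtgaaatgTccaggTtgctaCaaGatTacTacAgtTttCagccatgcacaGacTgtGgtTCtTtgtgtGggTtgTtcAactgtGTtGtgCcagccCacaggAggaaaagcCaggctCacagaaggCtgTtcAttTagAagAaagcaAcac
The differences are spread over the whole reading frame, and no stretch of 50 bases is shared between these coding sequences. The same held for the coding sequences of *Rpl36al*, *Rpl22l1* and *Rpl7l1* and their parents, and for the transcripts of *Rps4l* and *Rps4x*. Untranslated parts of the other pairs were not compared. The identity of the coding sequences was 87.7% for *Rpl36al* and *Rpl36a*, 66.9% for *Rpl22l1* and *Rpl22* and 51.7% for *Rpl7l1* and *Rpl7*. Stretches of 50 bases were, however, shared with transcripts of other annotated genes, and whether these are processed copies was not examined. *Rps27* shares 98.6% of its 50-base stretches with transcripts of other annotated genes, the highest of the members, and the median over members was 55.5%. For 49 members most of the stretches were shared, and 61 members have at least 1 named pseudogene (293 in all), so the FPKM of single members are uncertain to the extent that the counting divided such reads.

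In the transcripts, members were short, with a median length of 705 bases against 2738.5 over all loci of at least 5 FPKM, while their median GC content was 51.7% against 50.7%. *Rpl41*, among the shortest reading frames known in mammals, has 75 coding bases.
Rpl41: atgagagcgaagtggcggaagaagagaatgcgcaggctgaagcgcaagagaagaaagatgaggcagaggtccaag
The 82 genes lie on 19 chromosomes, with 14 on chromosome 7 and 4 on X. The deposited span of 7 members, *Rps4l*, *Rpl32*, *Rps15*, *Rpl38*, *Rpl31*, *Rpl5* and *Rps27a*, was over 5 times that of the annotated gene, so that their FPKM may include neighbouring transcripts.

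*Ntn1* had 17.8 to 28.9 FPKM in WT, 12.0 to 16.5 in HET and 10.8 to 16.5 in MUT libraries. It lay lower in all Cre-bearing libraries than in WT but overlapped between HET and MUT. *Foxd1* was at 25.8 to 33.7 FPKM in WT and 20.2 to 24.8 in the other libraries. Of 13 markers of the developing kidney, 12 were above 5 FPKM in every library. The number of reads is unknown, but the spacing of the lowest FPKM gave relative depths from 0.575 (WT-2) and 0.615 (MUT-3) to 1.28 (MUT-1), with WT-1 set to 1. HET-2 carried liver transcripts, with a summed 870 FPKM of 12 liver markers against 35.1 to 61.9 in the others. MUT-2 stood apart in the proportions of the ribosomal protein messages themselves, as described after the levels, and results are given with and without it.

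The most abundant members were *Rplp1* (3237 FPKM as the mean of 9 libraries), a protein of the stalk that recruits elongation factors, and *Rps27* (2957 FPKM), *Rps12* (2578 FPKM) and *Rps29* (2555 FPKM) of the small subunit, with *Rpl41* (2566 FPKM) of the large one. At the other end stood *Rpl7l1*, *Rps4l*, *Rps15a* (156 FPKM), *Rpl22* (242 FPKM) and *Rpl36al* (282 FPKM), so that 3 of the 5 lowest were paralogs. Levels spanned 44.0-fold, with a median of 1216 FPKM, and 59 members lay between 500 and 2000 FPKM. The median was 1491 FPKM for the 31 small subunit genes and 1185 FPKM for the 46 large subunit and stalk genes. Members were 38 of the 50 loci with the highest mean FPKM in these kidneys. FPKM are per length, which allows levels of different genes to be compared, but shared reads and short transcripts limit this for single genes.

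In WT kidneys the members' FPKM summed to 81826, 111178 and 103898 in WT-1 to WT-3. The corresponding sums for HET were 119017, 116482 and 99471 by replicate number. For MUT they were 83793, 109110 and 118447. WT-1 and MUT-1 were thus the lowest, HET-1, MUT-3 and HET-2 the highest, and the highest sum was 1.45 times the lowest. The genotypes overlapped: MUT libraries stood near both ends of the range. As a share of all FPKM, members made up 18.0%, 20.4% and 20.7% in WT, 22.2%, 22.3% and 20.3% in HET and 18.3%, 21.6% and 22.0% in MUT. The low libraries were low throughout, since WT-1 and MUT-1 were the 2 lowest libraries for 76 of 82 members. The median FPKM of the members was 964 in WT-1 and 968 in MUT-1, and 1150 to 1418 in the other 7 libraries. In whole tissue, fewer cells that make much of a message and less message per cell cannot be told apart.

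Other measures moved with this library level to differing extents. WT-1 and MUT-1 were the 2 lowest for 21 genes of ribosomal DNA transcription, at 631 and 641 FPKM against 728 to 860 elsewhere. The same held for genes with TOP-type messages not listed at 0 in any library (8091 and 8368 FPKM against 9118 to 10227). It did not hold for Myc network genes (237 FPKM in each against 210 to 241) or mTORC1 genes (547 and 561 against 529 to 572). A list of 47 ribosome biogenesis genes summed to 1701 FPKM in WT-1, 1750 in MUT-1 and 1741 in MUT-2, against 1997 to 2163 in the other 6 libraries. MUT-2 was thus low for this list but not for the members, which summed to 109110 FPKM in it. MUT-1 was the deepest library by relative depth, and the shallowest, WT-2 and MUT-3, were the highest of their genotypes in summed members. The shallowest HET library, HET-1 (0.900), likewise had the highest sum of its genotype. The other HET libraries were not in that order: HET-2, at a relative depth of 1.11, had a higher sum than HET-3 at 1.06. WT-1, with the lowest sum, was close in depth to WT-3 (0.974). A list of 12 genes of handling stress was at 202 FPKM in MUT-1, 152 in WT-1 and 117 to 149 elsewhere. The part of depth and handling in the level of the members was not tested.

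**Figure D1:**
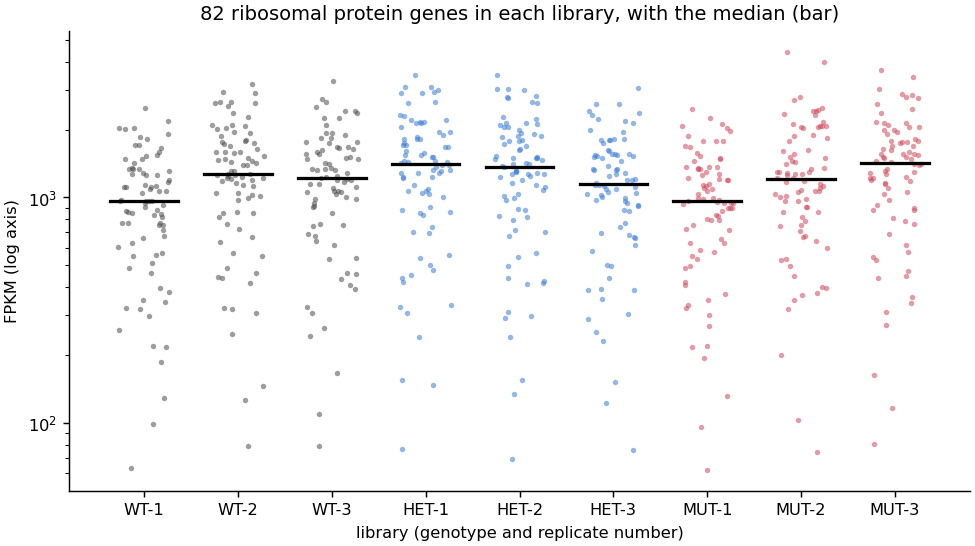
FPKM (log axis) of the 82 ribosomal protein genes in each of the 9 libraries, coloured by genotype, with each point 1 gene and the bar the library's median. The medians of WT-1 (964) and MUT-1 (968) lie below those of the other 7 libraries (1150 to 1418), and the genotypes overlap.

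Apart from their common level, the members kept almost fixed proportions in 8 of the 9 libraries. For each gene the log2 FPKM was taken relative to its library's median member and to that gene's own median over the libraries, giving a departure. The s.d. of the departures over the 82 members was 0.304 in MUT-2 and 0.0450 to 0.0837 in the other 8 libraries. Over 265 other loci with a mean of at least 200 FPKM, the same s.d. was 0.236 in MUT-2 and 0.0994 to 0.275 in the others, so that MUT-2 was inside the range for these. Departures of more than 0.25 were found for 21 members upwards and 10 downwards in MUT-2, and for at most 2 members in either direction in any other library.

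Those high in MUT-2 were led by the paralog *Rpl22l1*, with a departure of 0.96. *Rpl39*, which lines the tunnel through which the new peptide leaves, was at 0.81, the ubiquitin fusion gene *Rps27a* at 0.74, *Rps27* at 0.69, *Rpl26* at 0.65 and *Rpl36a* at 0.63. Those low in MUT-2 were led by *Rpl29* at -0.51, *Rpl6* at -0.40, *Rps16* at -0.35, *Rps4x* at -0.30 and *Rpl18* at -0.30. The 21 high members included 8 of the small and 13 of the large subunit, and the 10 low ones 2 and 8. They had a median transcript length of 552 and 785.5 bases and a median GC content of 50.2% and 50.7%, against 775 bases and 52.8% for the other 51 members. Across the 82 genes, the departure in MUT-2 had a Spearman correlation of -0.33 with GC content, -0.26 with transcript length and -0.10 with the share of 50-base stretches held in common with other genes. In the other 8 libraries the correlation with GC content ran from -0.34 to 0.45, so MUT-2 was not outside the rest in that respect. These genes are not independent replicates, and the cause of the departures was not tested.

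**Figure D2:**
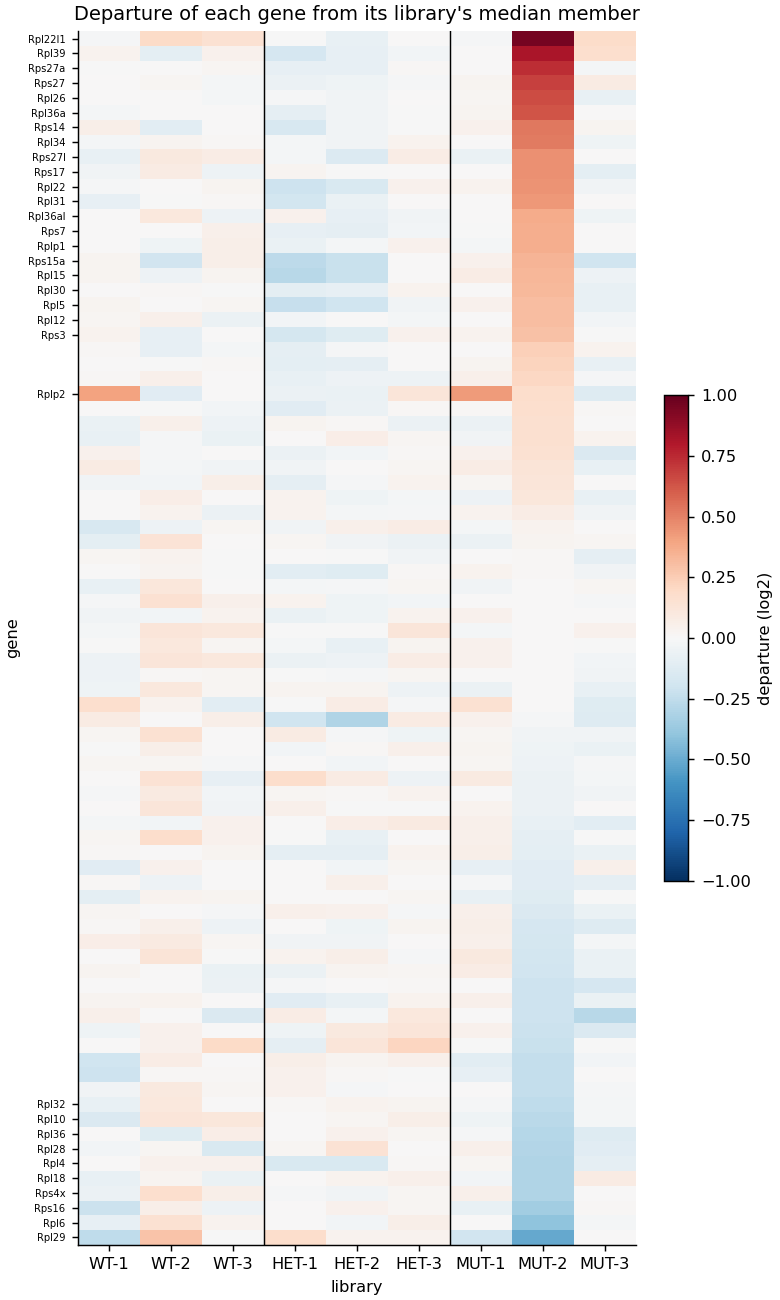
Departure of each of the 82 genes (rows, sorted by MUT-2, with *Rplp2* and the genes beyond 0.25 in MUT-2 labelled) from the median member of its library, relative to the gene's own median over 9 libraries, on a log2 scale from blue (low) to red (high). The column of MUT-2 runs from 0.96 (*Rpl22l1*) to -0.51 (*Rpl29*), while the other columns are pale apart from *Rplp2* in WT-1 and MUT-1 and a few weaker cells.

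MUT and HET, the study's main contrast, differ in whether the second *Ntn1* allele can be lost. No member passed the test. *Rps4l*, annotated as a transcribed processed pseudogene with a single exon, was the only member whose 3 MUT libraries (96.3, 103.7 and 116.9 FPKM) all lay below the 3 HET libraries (148.2, 134.9 and 123.1 FPKM), and WT libraries had 99.4, 126.7 and 109.8 FPKM. HET and MUT thus did not overlap, while WT overlapped both. Its log2 fold change on the log2(FPKM + 1) scale was -0.36 (standard error 0.17, limma with Benjamini-Hochberg adjustment, adjusted p = 0.933). Its deposited locus (chromosome 6, 148047416 to 148444352) is 421 times as long as the annotated gene. *Rpl29*, a large subunit protein, had 534.8, 534.1 and 896.6 FPKM in MUT, 1008.0, 886.7 and 743.7 FPKM in HET and 510.1, 975.3 and 764.6 FPKM in WT. MUT-3 lay among the HET libraries and the other MUT libraries below them, with a log2 fold change of -0.46 (standard error 0.25, limma adjusted p = 0.933).

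Relative to HET, 17 of all members had a higher and 65 a lower value in MUT, with a median log2 fold change of -0.14 against -0.02 over all 10081 loci tested. No locus passed at an adjusted p under 0.05 (0.0% of those tested). At an unadjusted p under 0.05, 494 loci passed, of which 3.01% of those tested were higher and 1.89% lower in MUT, and 0 members did. Without the replicate block, 636 loci and 1 member, *Rps4l*, had an unadjusted p under 0.05, and again no locus passed the adjusted threshold. Every MUT library lay above every HET library in 5.19% of loci and in 0 members, and below in 4.5% of loci and in 1 member, *Rps4l*. With quantile rescaling of the libraries 28 members were higher, and with rescaling to TPM 27. The adjusted p of members lay between 0.933 and 0.998.

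The lean towards lower values rested on libraries numbered 1. The median log2 difference of members between same-numbered libraries was -0.50 for MUT-1 and HET-1, with all 82 members lower, -0.17 for MUT-2 and HET-2 with 27 higher, and 0.26 for MUT-3 and HET-3 with 81 higher. Without replicate 1, 53 members were higher, with a median of 0.05. Without replicate 2, and so without MUT-2 and HET-2, 2 were higher and the median was -0.13, and without replicate 3, 10 were higher with a median of -0.35. The members' direction between MUT and HET therefore differed from pair to pair, and 0 members passed the adjusted threshold in any of these.

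By role, 25 of 31 small subunit genes were lower in MUT than in HET (median log2 fold change -0.17), 35 of 43 large subunit genes (-0.14), 2 of 3 stalk genes (-0.01) and 3 of 5 paralogs (-0.01). After *Rps4l* and *Rpl29*, lower members with small unadjusted p included *Rpl14* (log2 fold change -0.30) and *Rpl6* (-0.29). Among higher members they were those of *Rpl39* (0.28), *Rpl22l1* (0.26), *Rpl15* (0.14), *Rpl22* (0.11) and *Rps27a* (0.15). *Rpl39* had 951.4, 2079 and 1566 FPKM in MUT, 1233, 1272 and 1111 FPKM in HET and 969.6, 1164 and 1232 FPKM in WT. Its highest values were MUT-2 and MUT-3 and its lowest MUT-1, so that MUT spanned both other genotypes. Without replicate 2 the log2 fold changes of *Rpl22l1* (-0.031), *Rpl22* (-0.040) and *Rps27a* (-0.096) turned negative.

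The comparison of MUT with WT sets kidneys that carry the Cre and can lose both *Ntn1* alleles against kidneys without Cre. *Rplp2*, a stalk protein, was the only member whose 3 MUT libraries (2070.8, 2169.3 and 2060.9 FPKM) lay above all WT libraries (2029.5, 1868.7 and 1936.2 FPKM), by a log2 fold change of 0.11 (standard error 0.09, limma adjusted p = 0.995). *Rps27* had 2241, 4407 and 3413 FPKM in MUT, 2194, 2920 and 2727 FPKM in WT and 3090, 3029 and 2594 FPKM in HET. Each MUT library was above the WT library of its number, but the genotypes overlapped, and the log2 fold change against WT was 0.32 (standard error 0.12). It was the 1 member with an unadjusted p under 0.05 (limma adjusted p = 0.995), and without the replicate block 0 members had one. Next came *Rpl39* (log2 fold change 0.38) and *Rpl36a* (0.27), and among lower members *Rpl14* (-0.10), *Rpl29* (-0.19) and *Rpl4* (-0.10).

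Relative to WT, 53 members had a higher and 29 a lower value in MUT, with a median log2 fold change of 0.03 against -0.003 over 10096 loci. The share of loci that passed was 0.0% at an adjusted p under 0.05. Without adjustment 201 loci passed, 0.872% of those tested higher and 1.12% lower in MUT. MUT lay wholly above WT in 1.32% of loci and wholly below in 1.34%, the latter with 0 members. Without replicate 2, 80 members were higher (median 0.11), and without replicate 3, 33 (median -0.06). When only MUT-2 was left out and libraries were not paired, a setting chosen after seeing the data, 57 were higher with a median of 0.01, and in MUT against HET 2 were higher with a median of -0.16. *Rpl29*, *Rpl14* and *Rpl4* had log2 fold changes of 0.15, 0.014 and 0.058 without replicate 2, and of -0.065, -0.043 and -0.025 when only MUT-2 was left out.

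HET against WT compares kidneys with 1 floxed *Ntn1* allele, the Cre and 1 lost *Foxd1* allele with kidneys that have no Cre. All 82 members were higher in HET, as were 52.4% of all 10105 loci tested. The members' median log2 fold change was 0.17 against 0.01 over these loci, with values from 0.01 to 0.30, yet 0 members separated HET from WT. The smallest p were those of *Rps4l* (log2 fold change 0.28), *Rpl28* (0.30) and *Rpl38* (0.29), a large subunit protein known for skeletal patterning defects when it is lost. *Rpl38* had 1364, 1406 and 1197 FPKM in HET and 853.4, 1210 and 1224 FPKM in WT. The HET range overlapped the WT range, in which WT-1 was low (standard error 0.19, limma adjusted p = 0.994).

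The share of loci past an adjusted p under 0.05 was 0.0%. At an unadjusted p under 0.05, 233 loci passed, 0.95% of those tested higher and 1.36% lower in HET, and 0 members. HET lay wholly above WT in 2.15% of loci and wholly below in 1.06%. Without replicate 1, 35 of 82 members were higher, with a median of -0.01, whereas without replicate 2 or 3 all 82 were still higher (medians 0.23 and 0.30). The common direction thus rested on WT-1 and HET-1, whose median difference was 0.54, against 0.05 in pair 2 and -0.07 in pair 3. With quantile rescaling 67 of 82 members were higher, with a median of 0.05. The 3 comparisons share libraries, so their values are not independent.

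**Figure D3:**
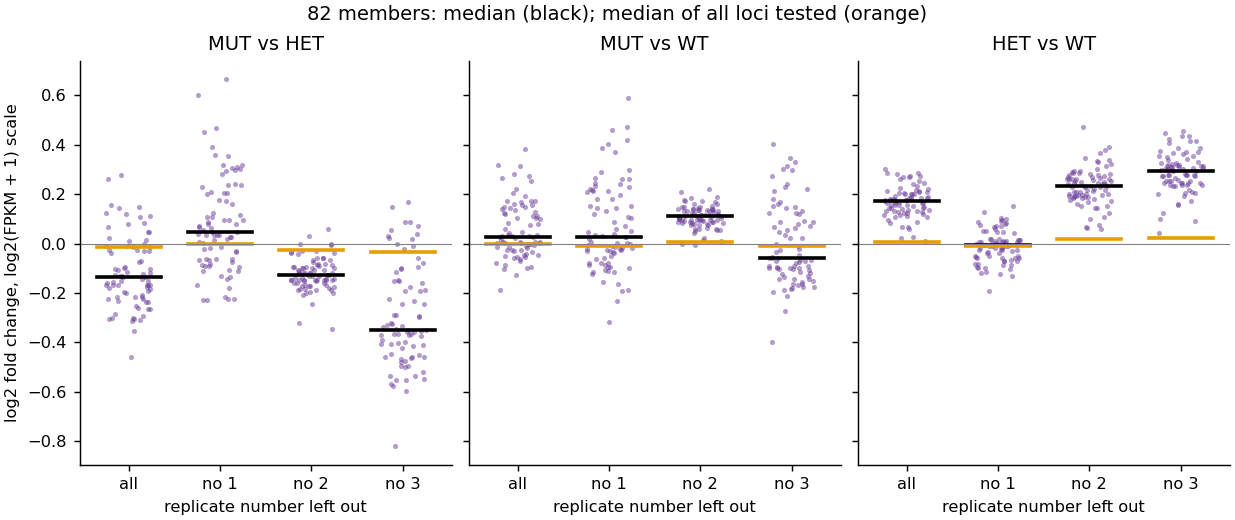
Log2 fold change (log2(FPKM + 1) scale) of each of the 82 members (points) in the 3 comparisons, with all libraries and with replicate 1, 2 or 3 left out of both genotypes. Black bars are the members' medians and orange bars the medians of all loci tested; the members' median in HET vs WT moves from 0.17 to -0.01 without replicate 1, and in MUT vs HET from -0.14 to 0.05.

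The stalk genes encode the acidic proteins that bind translation factors. *Rplp2* (chromosome 7, 141447650 to 141451342) varied least between libraries of all 82 members, with a ratio of 1.16 between its highest and lowest library, where the median member had 1.54 and *Rpl22l1* 2.44. Its level in WT was 1945±80.7 FPKM, in HET 2079±85.5 and in MUT 2100±59.9 (mean±s.d. of 3 libraries). Its scaffold partner *Rplp0* (1.35) and *Rplp1* (1.62), the other stalk genes, followed the low level of WT-1 and MUT-1, so that relative to the median member *Rplp2* stood high in those libraries. After the common level was taken off, the members that varied most were *Rpl22l1* (s.d. 0.316 on the log2 scale), *Rpl39* (0.293) and *Rps27a* (0.255). Without MUT-2 these fell to 0.104, 0.104 and 0.0407, and *Rplp2*, at 0.224, became the most variable.

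Of the 5 paralogs, 4 were lower in level than their parents. *Rps27l* had a mean of 304 FPKM against 2957 for *Rps27*, *Rpl7l1* 73.6 against 1880 for *Rpl7*, *Rpl36al* 282 against 1036 for *Rpl36a* and *Rps4l* 118 against 2019 for *Rps4x*. *Rpl22l1*, known to be held down by *Rpl22* protein in other tissues, was the exception, with 471 FPKM against 242 for *Rpl22*. *Rpl22l1* and *Rpl22* both had their highest value in MUT-2 (790.5 and 321.1 FPKM), as did *Rps27* and *Rps27l* (4407 and 396.3 FPKM). In the other 8 libraries *Rpl22l1* ranged from 324.2 to 545.3 FPKM.

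Members with known roles beyond the common set were compared between MUT and HET. *Rpl5* had 450±89.6 FPKM in MUT and 412±15.3 in HET, *Rpl11* 1253±244 and 1260±88.2, and *Rpl23* 790±142 and 785±79.7 (mean±s.d., n=3 each). The proteins of these genes bind Mdm2, the ubiquitin ligase of p53, when ribosome assembly fails. *Rps6*, the substrate of S6 kinase, had 384±58.5 and 418±25.3 FPKM, *Rps19*, mutated in Diamond-Blackfan anaemia, 1033±190 and 1173±158, *Rpl24* 735±156 and 793±103, and *Rpsa*, also known as the laminin receptor, 1128±186 and 1175±72.9. The differences were smaller than the s.d. of MUT in each of these 7 genes. The X-linked *Rpl10*, *Rpl36a*, *Rpl39* and *Rps4x* did not share a direction: *Rpl10* (log2 fold change -0.29) and *Rps4x* (-0.22) were lower in MUT than in HET and *Rpl36a* (0.12) and *Rpl39* (0.28) higher, with limma adjusted p between 0.933 and 0.957. Their departures in MUT-2 had the same signs (-0.27, -0.30, 0.63 and 0.81 in that order). *Rpl36a* had 1509 FPKM in MUT-2 but 797.0 in MUT-1 and 1149 in MUT-3, against 1073, 1085 and 927.9 in HET. *Rpl13a* (-0.02), deposited in 1 locus with a small nucleolar RNA and a microRNA, and *Rpl30* (-0.01), joined with another gene, hardly differed between MUT and HET.

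**Figure D4:**
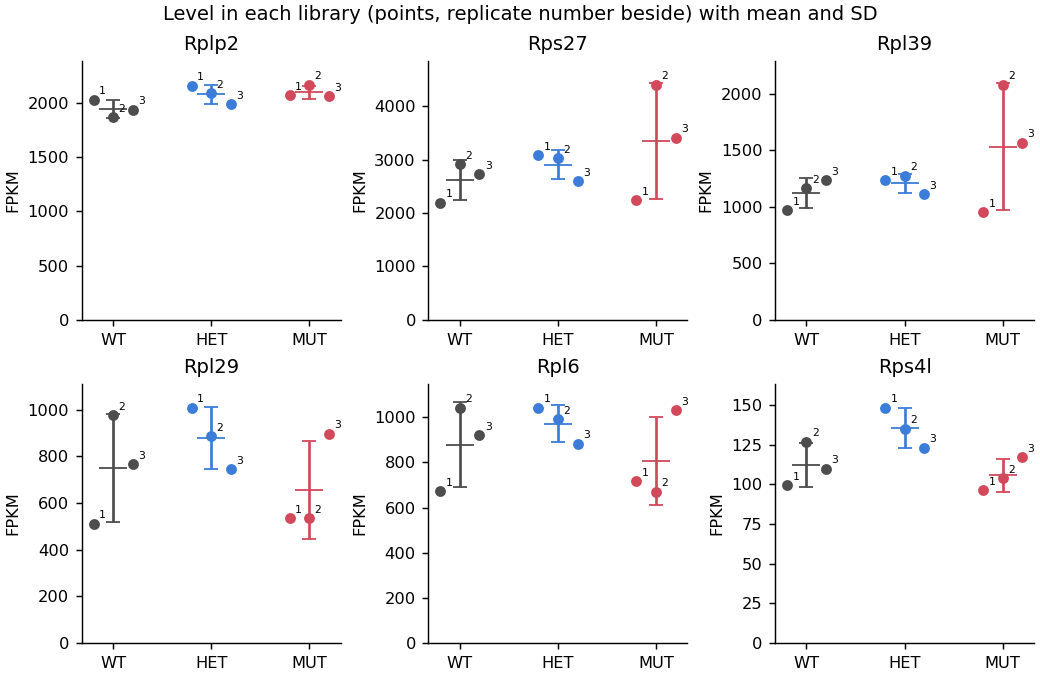
FPKM in each library (points, with the replicate number beside) of *Rplp2*, *Rps27*, *Rpl39*, *Rpl29*, *Rpl6* and *Rps4l* by genotype, with mean and s.d. of 3 libraries. *Rplp2* is nearly level (1869 to 2169 FPKM), and *Rps27* and *Rpl39* are high in MUT-2 (4407 and 2079 FPKM). *Rpl6* and *Rpl29* are low in MUT-2 (671.4 and 534.1 FPKM), WT-1 (673.2 and 510.1 FPKM) and MUT-1 (715.8 and 534.8 FPKM). Only *Rps4l* separates MUT from HET.

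Genes that work with the ribosomal proteins were compared between MUT and HET by fixed lists, leaving out genes listed at 0 in a library, and 0 genes of any list passed the adjusted threshold in any comparison. Beside the counts for every list, 45.9% of all loci tested were higher in MUT than in HET. Against WT, 48.7% of all loci were higher in MUT. All 3 listed genes that encode ribosomal proteins under another kind of name had lower values in MUT than in HET (median -0.18). Among them *Fau* and *Rack1* had log2 fold changes of -0.29 and -0.07. Of 19 tested genes with TOP-type messages 5 were higher and 14 lower (median -0.09). They were led by *Gas5*, a non-coding snoRNA host and no translation factor (-0.75, unadjusted p = 0.001 and adjusted p = 0.755 from limma). Next came the elongation factor subunit *Eef1d* (-0.34). *Gas5* had 27.7, 22.0 and 52.1 FPKM in MUT, 53.9, 50.2 and 57.9 FPKM in HET and 31.7, 51.3 and 70.3 FPKM in WT, so that MUT-3 and HET overlapped. *Eef1a1*, an abundant elongation factor, was listed at 0 in 7 libraries and at 5735 FPKM in WT-2 and 5691 in MUT-3, and was therefore left out.

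Of 47 ribosome biogenesis genes, 6 had a higher and 41 a lower value in MUT (median -0.14), with *Lsg1* (-0.32), a GTPase of large subunit maturation, and *Rrp12* (-0.34), a factor of ribosome assembly, at the smallest p. The same list had 8 higher and 39 lower against WT. Of 21 genes of ribosomal DNA transcription 15 were lower (median -0.14), led by the shared polymerase subunits *Polr2e* (-0.32) and *Polr2f* (-0.30). All 17 proliferation genes were lower (median -0.15), led by *Aurka* (-0.34), a mitotic kinase, and *Mcm5* (-0.28), part of the replicative helicase. The sum of that list was 1099 FPKM in MUT-2, 1219 in WT-1 and 1287 in MUT-1, against 1385 to 1508 in the other 6 libraries. MUT-3, at 1497 FPKM, lay above HET-1 (1453), HET-2 (1385) and HET-3 (1484). The biogenesis sum was likewise higher in MUT-3 (2163 FPKM) than in any HET library. The lower values in MUT thus lay in MUT-1 and MUT-2.

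Controllers of these genes were mixed. Of 18 tested genes of mTORC1 and its control of TOP messages, 15 were higher in MUT than in HET (median 0.05), with *Eif4ebp2* (0.54), a repressor of cap-dependent translation, at the smallest p, and its relative *Eif4ebp1* at -0.27. Of 10 Myc network genes 4 were higher (median -0.02), led by the Myc antagonists *Mnt* (0.33) and *Mxd4* (0.30). Of 13 tested genes of p53 and its targets 8 were higher (median 0.04), with the p53 inhibitor *Mdm4* (-0.42) and the stress protein gene *Sesn2* (0.29) at the smallest p. Against WT, 10 of the 13 were higher and 3 lower in MUT (median 0.10), and 4 lay wholly above WT, as did 1.32% of all loci. These were *Bbc3*, *Cdkn1a*, *Phlda3* and *Btg2*, named after their values were seen, and 0 of the list passed the adjusted threshold. HET leaned the same way against WT: of 12 tested genes of this list 8 were higher and 4 lower (median 0.11). In that comparison 1 gene of the list lay wholly above WT, as did 2.15% of all loci.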

How the data were processed

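Per the labels and the study's methods, RNA of 9 whole kidneys was made into libraries with a stranded mRNA kit. The authors aligned reads to mm10 with STAR, built transcripts with Cufflinks and cuffmerge, and took FPKM from Cuffdiff. Versions and the annotation are not given in the sources used here. The deposited table lists FPKM for 24138 loci, which were taken unchanged, and 3 columns of genotype averages were not used. The members and gene lists were chosen with earlier results of these data known. Read depth is unknown, so the spread of 3 libraries per genotype gives the precision. Per the study's methods the 3 kidneys of each genotype came from 3 crosses, but which library came from which cross is not given in the sources used here.

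Loci averaging 5 FPKM or more in 1 of the genotypes were compared on log2(FPKM + 1), which understates the change of low genes, with limma 3.58.1 in R 4.3.3 (lmFit, eBayes with a trend). All p are two-sided, with Benjamini-Hochberg adjustment over all loci tested, a threshold of 0.05 and only the 2 genotypes compared in each fit. The replicate number was a block, after the study's paired *P* values. The steps were tested on simulated data. The genes named were the 5 highest and 5 lowest members, those with the smallest p in each direction, those that varied most, paralogs with their parents, stalk and X-linked genes, members with known further roles, members joined with other genes, and the 2 genes of smallest p in each list. A few genes that this rule selects are not reported here. Deposited locus starts were counted from 0 and 1 was added. Lengths, GC content and coding sequences came from GENCODE release M21 (GRCm38) and promoters from RefSeq. Python 3.11.15, pandas 2.3.3 and matplotlib 3.10.9 were used. Alternatives were no block, pseudocounts of 0.1 and 3, a minimum of 1 FPKM or none, 3 rescalings, all 9 libraries in 1 fit, no trend, a GC correction, members without paralogs and joined loci, and each replicate number left out. The lists of adrenal (2.42 to 4.50 FPKM in sum), erythroid (1373 to 2401 FPKM, highest in HET-2) and leukocyte markers (55.5 to 92.5 FPKM) were checked in each library, and 13 mitochondrially encoded genes were not found under those names in the table.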

Additional observations from a re-analysis of the deposited data

How the results depend on the processing

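No member passed the adjusted threshold in any setting. The values that moved were those of direction and those that left out a replicate number, where each fit has 1 residual degree of freedom. Loci past the threshold then numbered 37 to 107 in MUT vs HET, 1 to 72 in MUT vs WT and 1 to 134 in HET vs WT, against 0 with all libraries, and members higher numbered 2 to 53, 33 to 80 and 35 to 82. Leaving out only MUT-2 with no pairing, a setting added after seeing the data, gave 1 locus past the threshold in MUT vs HET and 1 in MUT vs WT, and 2 members higher in MUT vs HET. In MUT vs HET, 28 members were higher with quantile and 27 with TPM rescaling. The log2 range of the members' median over libraries was 0.56 in the deposited FPKM, 0.55 with median-ratio, 0.11 with quantile and 0.32 with TPM rescaling, and the cause was not tested. The s.d. of departures in MUT-2 stayed between 0.295 and 0.304 under 3 rescalings, also added after seeing the data.

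Leaving out each replicate number, or MUT-2 alone, moved the log2 fold change in MUT vs HET to between -0.042 and 0.67 for *Rpl22l1*, -0.051 and 0.32 for *Rpl22* and -0.11 and 0.45 for *Rps27a*. The negative values came from the fits without replicate 2 (-0.031, -0.040 and -0.096) or without MUT-2 alone (-0.042, -0.051 and -0.11). In MUT vs WT the ranges were -0.17 to 0.014 for *Rpl14*, -0.40 to 0.15 for *Rpl29* and -0.19 to 0.058 for *Rpl4*, positive without replicate 2 in each. Of the other recomputed log2 fold changes of members with the smallest p, 273 kept their sign and side of the threshold.

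Same-numbered libraries did not deviate together in a regular way. The correlation of their deviations across loci ran from -0.31 to 0.05 for MUT and HET, from -0.26 to 0.55 for MUT and WT and from -0.20 to 0.17 for HET and WT. Libraries of different numbers were not compared in this way, so these values cannot show whether a number stands for a cross. Without the replicate block, 0 loci passed the adjusted threshold in each comparison, 0 members did, and 636, 65 and 108 loci had an unadjusted p under 0.05 in MUT vs HET, MUT vs WT and HET vs WT, so the block changed no adjusted call. At an unadjusted p under 0.05 it did: without it 1 member (*Rps4l*) passed in MUT vs HET and 0 in MUT vs WT, against 0 and 1 (*Rps27*) with it.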
